A study of Mus musculus with 8 samples.

Results

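Alveolar macrophages are the resident phagocytes of the air spaces, and 9 genes that mark them were followed in mouse lung after lipopolysaccharide (LPS), with and without YW3-56, an inhibitor of protein arginine deiminases. The genes were listed by symbol and found among the 55416 genes of the deposited count files: Siglecf, Marco, Mrc1, Pparg, Atp6v0d2, Ear1, Ear2, Chil3 and Plet1. All 9 passed the filter on low counts, which kept 18560 genes.

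RNA of whole lung tissue was sequenced from 8 female C57BL/6J mice aged 6 to 8 weeks. The control group (mice 1, 2 and 4) received DMSO into the tail vein and then saline into the peritoneum. The LPS group (mice 1, 6 and 7) received 35 mg/kg LPS, and the LPS + YW3-56 group (mice 2 and 5) received 10 mg/kg YW3-56 in DMSO 0.5 h before the same LPS dose. Lungs were taken 24 h after LPS. The methods name no DMSO injection for the LPS group and there was no group with YW3-56 alone, so the inhibitor and its vehicle cannot be told apart. They give 3 sequenced mice a group, while the labels and a figure caption of the paper give 2 with YW3-56. Only the lung of 1 side was used for RNA.

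Total counts were 19061949, 19796242 and 20527836 in control mice 1, 2 and 4. They were 20818501, 19379911 and 19279724 in LPS mice 1, 6 and 7, and 19875939 and 20908608 in LPS + YW3-56 mice 2 and 5. At this depth the least counted value among the 9 genes was 42 counts, for Siglecf in LPS mouse 7. Values per mouse are CPM, the counts of a gene relative to the TMM-scaled total of its library. A gene was called where its edgeR quasi-likelihood p, adjusted over all 18560 genes by the Benjamini-Hochberg method, was under 0.05. Errors are the SD over mice for CPM and the standard error (SE) for log2 fold changes.

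Alveolar macrophages settle in the lung around birth and renew themselves there. GM-CSF from the epithelium induces the nuclear receptor PPARG, which sets up their lipid program, and TGF-beta helps to keep it. The cells clear surfactant and inhaled particles, and loss of GM-CSF signalling leads to surfactant build-up. In whole lung RNA, fewer alveolar macrophages and less RNA per cell cannot be told apart.

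The libraries held the markers of lung in every mouse. The surfactant gene Sftpc ranged from 8322 CPM in LPS mouse 7 to 24535 CPM in control mouse 4, and endothelial Cldn5 from 576 to 698 CPM. LPS mice 6 and 7 stood apart. Genes of squamous epithelium, among which the keratin Krt13 had the highest mean over the 8 mice, summed to 762 and 2113 CPM in them, against 36.8 CPM in LPS mouse 1 and 41.2 to 80.3 CPM in the other groups. Genes of skeletal muscle, most of all Acta1, summed to 523 and 1336 CPM in the same mice, against 21.5 CPM in LPS mouse 1 and 7.12 to 31.8 CPM in the other groups. Results are therefore also given without mice 6 and 7, where LPS mouse 1 is assumed to vary like the mice of the other groups. The same is assumed of the mouse that is left where 1 of the LPS + YW3-56 mice is omitted.

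LPS lowered 5 of the 9 genes against control and raised 1. The sialic acid receptor Siglecf, the ribonucleases Ear1 and Ear2, the nuclear receptor Pparg and the proton pump subunit Atp6v0d2 fell, and the surface protein Plet1 rose. Marco, Mrc1 and Chil3 were not called. Of all tested genes, 33.9% were called lower and 32.6% higher in this comparison, so the share of members called higher was below the background and the share called lower above it. The median log2 fold change of the 9 genes was -0.60, against -0.01 over all tested genes. Without LPS mice 6 and 7 the log2 fold changes of the called genes kept their signs, from -2.03 for Ear2 to 1.21 for Plet1. Pparg (-0.47) was no longer called.

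With YW3-56 before LPS, 6 of the 9 genes were higher than with LPS alone and 1 was lower, where 31.7% and 27.4% of all tested genes were called. The 5 genes that fell with LPS were called higher, as was the scavenger receptor Marco, and Plet1 was called lower. The median log2 fold change was 1.28, against 0.06 over all tested genes. Without LPS mice 6 and 7 the log2 fold changes of the called genes kept their signs, from -1.50 for Plet1 to 1.91 for Ear2. Siglecf (1.12) and Pparg (0.68) were no longer called. This comparison shares its LPS mice with the comparison of LPS and control, so opposite signs in them are not separate observations.

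Against control, the LPS + YW3-56 group had 1 gene called higher, Marco, where 9.13% of all tested genes were called higher and 7.02% lower. None of the 9 was called lower by edgeR or by DESeq2, and 1 had a lower value at an unadjusted edgeR p under 0.05. The median log2 fold change was 0.22, against 0.004 over all tested genes. With 2 mice in 1 group, a gene that was not called is not shown to be at the control level.

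**Figure D1:**
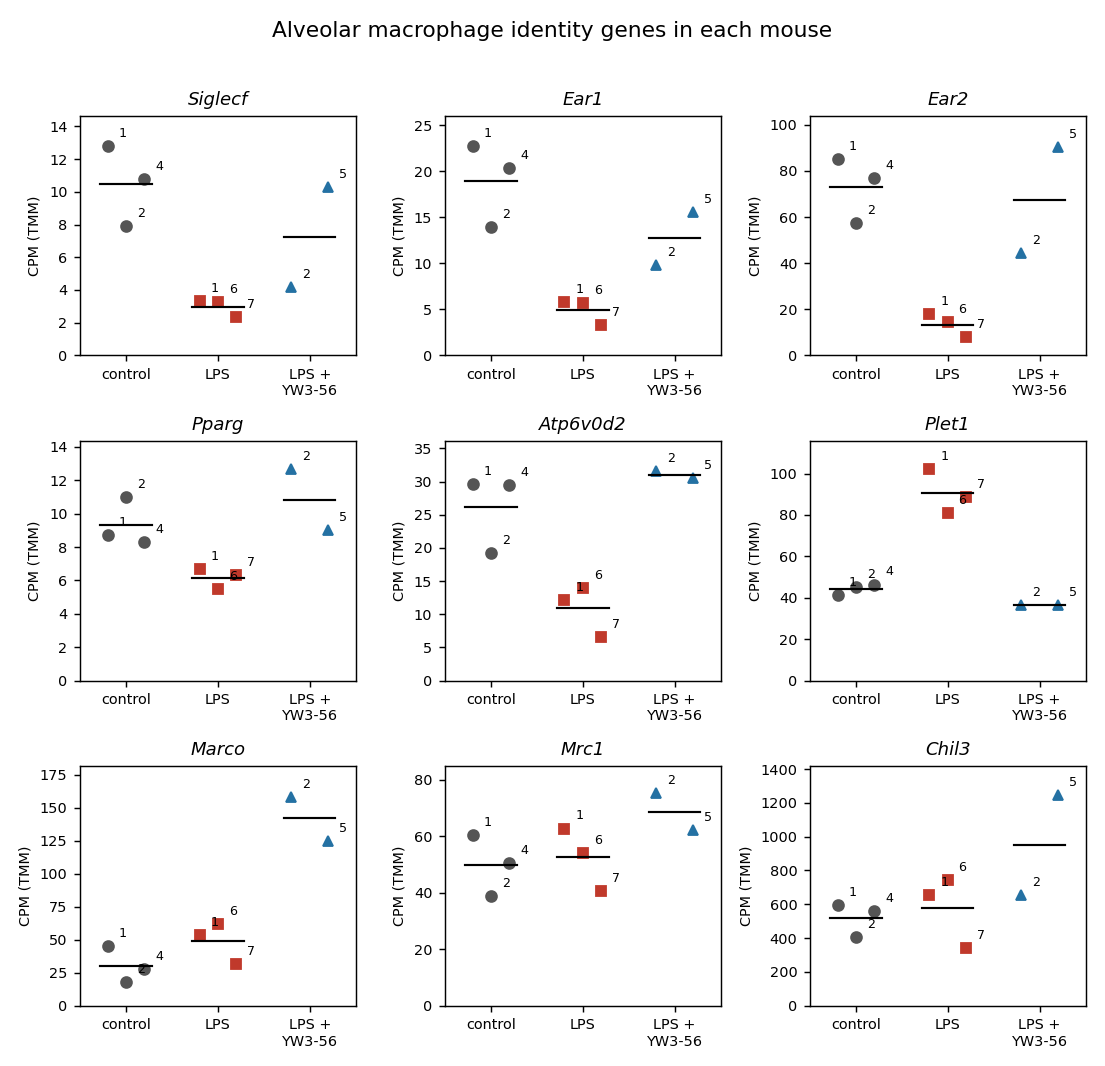
Expression of the 9 genes in each of the 8 mice, as TMM-scaled CPM on linear axes that start at 0; points are mice with their numbers, and lines are group means. Ear2 lay between 7.98 and 17.9 CPM in the LPS mice, below every mouse of the other groups, and Plet1 between 81.0 and 102 CPM, above every mouse of the other groups.

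Siglecf encodes a receptor for sialic acids that is used to sort alveolar macrophages. It was at 12.8, 7.93 and 10.8 CPM in control mice 1, 2 and 4, at 3.32, 3.29 and 2.34 CPM in LPS mice 1, 6 and 7, and at 4.17 and 10.3 CPM in LPS + YW3-56 mice 2 and 5. Every LPS mouse was below every control mouse, while the mice given YW3-56 were split, with mouse 2 near the LPS mice and mouse 5 among the controls. The log2 fold change was -1.81 ± 0.34 (SE) for LPS against control (edgeR adjusted p = 0.0012) and 1.28 ± 0.37 for LPS + YW3-56 against LPS (edgeR adjusted p = 0.0149). The second value was 1.12 without LPS mice 6 and 7 (edgeR adjusted p = 0.134). It was lower without LPS + YW3-56 mouse 5, at 0.46 (edgeR adjusted p = 0.287). With mouse 2 as the only one of its group, Siglecf was also called lower than control, at -1.36 (edgeR adjusted p = 0.0305).

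Ear1 and Ear2 are eosinophil-associated ribonucleases that resting alveolar macrophages also express. Ear1 was at 22.7, 13.9 and 20.3 CPM in the control mice, at 5.81, 5.72 and 3.29 CPM in the LPS mice, and at 9.85 and 15.6 CPM in the LPS + YW3-56 mice. Ear2 was at 85.0, 57.4 and 77.1 CPM, then 17.9, 14.5 and 7.98 CPM, then 44.5 and 90.4 CPM in the same order. For both genes every LPS mouse was below every mouse of the other groups, and mouse 5 was above mouse 2 in the group given YW3-56.

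Ear2 had the lowest log2 fold change of the 9 genes with LPS, -2.45 ± 0.33 (edgeR adjusted p = 0.000138), and Ear1 was at -1.94 ± 0.28 (edgeR adjusted p = 0.000234). Against LPS, the group given YW3-56 was higher by 2.33 ± 0.35 for Ear2 (edgeR adjusted p = 0.000402) and by 1.37 ± 0.31 for Ear1 (edgeR adjusted p = 0.004). Against control its values were -0.12 ± 0.34 and -0.57 ± 0.30, neither called. The calls against LPS and control held without LPS mice 6 and 7, with Ear1 at 1.12 against LPS (edgeR adjusted p = 0.0455).

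Eosinophils also carry Siglecf and Ear genes. Of 9 eosinophil genes, 6 were tested. Of the granule genes, Epx and Prg3 had at most 1 count in any library. Prg2 had 20, 15 and 29 counts in the LPS mice and 2 to 14 in the others. It was called higher with LPS by 1.75, a call that was lost without LPS mice 6 and 7. In LPS mouse 1, Prg2 was at 1.19 CPM, against 0.294, 0.141 and 0.644 CPM in the control mice. The eotaxin receptor Ccr3 had at most 4 counts. The list summed to 14.2, 8.07 and 35.2 CPM in the control mice, to 10.8, 15.8 and 13.5 CPM in the LPS mice, and to 19.3 and 15 CPM with YW3-56, with the lipoxygenase Alox15 the most abundant gene over the 8 mice and Ear6 above it in both mice given YW3-56. With LPS, 3 of the 6 genes were called higher, where 32.6% of all tested genes were. Not all of these calls held without LPS mice 6 and 7. The part of eosinophils in the Siglecf, Ear1 and Ear2 values was not tested.

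Other genes of the ribonuclease family did not all follow Ear1 and Ear2. Of 5 tested relatives, 2 were higher and 3 lower with LPS, where 32.6% and 33.9% of all tested genes were called. Rnase4, Rnase6 and Ang fell by 1.27, 1.79 and 1.78 on the log2 scale, while Ear6 was higher by 0.86 and Rnase2b was raised in LPS mice 6 and 7 (5.49 and 10.3 CPM) but not in LPS mouse 1 (0.0593 CPM). Ear6 was at 6.67 and 8.03 CPM in the mice given YW3-56, against at most 1.13 CPM in the other 6 mice.

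The pair lies on chromosome 14, on opposite strands, in a cluster of Ear genes and pseudogenes. In GRCm39 with GENCODE M39, Ear1 spans chr14:44056222-44112974 on the minus strand, a model that covers the pseudogenes Ear-ps9 and Ear-ps12, and Ear2 spans chr14:44311771-44340996 on the plus strand. Of the 150-base stretches of the main transcript, 5.67% of those of Ear1 recur in Ear-ps9 and 6.26% of those of Ear2 in Ear10, which had at most 3 counts in any library. How reads that fit several places were counted is not stated, so the split of counts between Ear1, Ear2 and their copies is uncertain.

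The promoters of Ear1 and Ear2 are shown because the genes moved together and their sequences are almost the same. RefSeq (GRCm38.p6) lists 300 bases for each, 1 entry a gene, from 250 before to 50 after the start, at chr14:43819590-43819889 (minus strand) and chr14:44102404-44102703 (plus strand). They are 97% identical over 303 aligned positions, with 3 substitutions and 6 positions opposite a gap. The other 27 pairs among the 8 members with a listed promoter had 38.9% to 50%, with the first of the 3 entries of Pparg used. Capitals mark bases that differ or have no partner.
Ear1 promoter: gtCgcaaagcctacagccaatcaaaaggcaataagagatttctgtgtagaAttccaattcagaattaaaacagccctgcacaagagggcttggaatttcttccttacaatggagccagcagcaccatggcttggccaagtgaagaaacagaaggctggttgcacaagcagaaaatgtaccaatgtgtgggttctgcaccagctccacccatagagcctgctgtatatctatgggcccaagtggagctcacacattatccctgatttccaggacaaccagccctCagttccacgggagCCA
Ear2 promoter: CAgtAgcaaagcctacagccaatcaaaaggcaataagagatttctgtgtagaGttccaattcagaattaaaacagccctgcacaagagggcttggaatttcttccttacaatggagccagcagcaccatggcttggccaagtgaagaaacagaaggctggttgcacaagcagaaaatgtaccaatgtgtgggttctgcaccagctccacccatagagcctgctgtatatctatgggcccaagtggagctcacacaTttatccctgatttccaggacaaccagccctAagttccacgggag

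The coding sequences, of 465 and 468 bases in exon 2 of each gene, are 95.1% identical, with 20 substitutions. Their first 120 bases in GRCm39 are at chr14:44056747-44056866 (minus strand) for Ear1 and at chr14:44340344-44340463 (plus strand) for Ear2, with capitals at the bases that differ.
Ear1 coding start: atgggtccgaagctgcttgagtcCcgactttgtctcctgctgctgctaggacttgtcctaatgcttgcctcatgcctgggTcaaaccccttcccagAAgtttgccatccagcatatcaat
Ear2 coding start: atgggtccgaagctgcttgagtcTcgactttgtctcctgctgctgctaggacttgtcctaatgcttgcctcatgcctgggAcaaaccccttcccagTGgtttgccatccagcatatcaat

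All entries of the 8 members, with 3 for Pparg and 1 for each other gene, were searched on both strands for letters that macrophage transcription factors are known to bind. GAGGAAGT, a form of the PU.1 motif, was in the promoters of 0 of the 8 members and in 3.2% of all 32851 promoters in the table, a share of promoters and not of genes. The element bound by PPARG with RXR, a direct repeat of AGGTCA with 1 base between the copies, was in 0 of the 8 and in 0.0396% of all. AGGAAGT, a shorter form contained in the first motif and chosen after the promoters had been read, was in 2 of the 8, those of Mrc1 and Chil3, and in 9.35% of all. Atp6v0d2 had no entry.

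Pparg encodes the receptor that GM-CSF induces in these cells. It was at 8.71, 11 and 8.28 CPM in the control mice, at 6.70, 5.49 and 6.31 CPM in the LPS mice, and at 12.7 and 9.0 CPM in the LPS + YW3-56 mice. The LPS mice were below all others, by a smaller margin than for Ear2. The log2 fold change was -0.60 ± 0.20 for LPS against control (edgeR adjusted p = 0.0223) and 0.81 ± 0.22 for LPS + YW3-56 against LPS (edgeR adjusted p = 0.00942). Neither fold reached 2.

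The Pparg calls depended on single mice. Against control, the call was lost without control mouse 2 (-0.47, edgeR adjusted p = 0.0947), without LPS mouse 6 (-0.51, edgeR adjusted p = 0.0739) and without LPS mice 6 and 7 together (-0.47, edgeR adjusted p = 0.194). Against LPS it was lost without LPS + YW3-56 mouse 2 (0.52, edgeR adjusted p = 0.0988) and without LPS mice 6 and 7 together (0.68, edgeR adjusted p = 0.0927). Fat cells express Pparg too, and the 7 adipocyte genes summed to 353 CPM in control mouse 2 and 541 CPM in LPS + YW3-56 mouse 2, the mice with the highest Pparg. They summed to 53.3 to 229 CPM in the other 6 mice, with Cfd the most abundant gene, and none was near 0 in every mouse. The part of fat in the Pparg values was not tested.

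Of the partners of PPARG, Rxra lay between 89.1 and 134 CPM and Rxrb between 59.1 and 70.7 CPM in all mice, and neither was called in any comparison. Ppard was higher with LPS by 0.97 on the log2 scale and Ppara lower by 1.83. Over the 5 tested PPAR and RXR genes other than Pparg, 1 was called higher and 1 lower with LPS. The shares of all tested genes were 32.6% and 33.9%. With YW3-56, 1 of the 5 was lower than with LPS alone, where 27.4% of all tested genes were called lower.

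Of 20 genes of lipid handling linked to PPARG, 7 were called lower and 4 higher with LPS. Of all tested genes, 33.9% were called lower and 32.6% higher. The median log2 fold change of the list was -0.12, against -0.01 over all tested genes. The fatty acid carrier Cd36 fell by 2.00, the oxysterol receptor Nr1h3 by 2.36 and the lysosomal lipase Lipa by 1.65 on the log2 scale. With YW3-56 the same 3 genes were higher than with LPS alone, by 1.40, 3.09 and 1.54. Nr1h3 was at 58.4 to 74.6 CPM in the control mice, 10.3 to 14.9 CPM in the LPS mice and 97.8 and 126 CPM with YW3-56. Pdk4 rose with LPS by 3.78 and Plin2 by 0.51. In this list 7 genes were higher and 3 lower with YW3-56 than with LPS alone, where 31.7% and 27.4% of all tested genes were called. The median was 0.44, against 0.06 over all tested genes.

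Atp6v0d2 encodes a subunit of the vacuolar proton pump that alveolar macrophages and osteoclasts express. It was at 29.6, 19.2 and 29.4 CPM in the control mice, at 12.2, 13.9 and 6.59 CPM in the LPS mice, and at 31.6 and 30.5 CPM in the LPS + YW3-56 mice. The LPS mice were below all others, and both mice given YW3-56 were above all controls. The log2 fold change was -1.26 ± 0.26 for LPS against control (edgeR adjusted p = 0.00201) and 1.52 ± 0.28 for LPS + YW3-56 against LPS (edgeR adjusted p = 0.00143). Without LPS mice 6 and 7 these were -1.09 (edgeR adjusted p = 0.0102) and 1.35 (edgeR adjusted p = 0.00601).

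The other 21 tested subunits of the pump moved in both directions. With LPS, 9 were called higher and 5 lower, where 32.6% and 33.9% of all tested genes were called. The median log2 fold change of the subunits was 0.20. The abundant subunit Atp6v0c rose by 1.02, while the less abundant Atp6v1b1 and Atp6v1g2 fell by 1.75 and 1.27. With YW3-56, 6 were higher and 6 lower than with LPS alone, where 31.7% and 27.4% of all tested genes were called. The osteoclast list summed to 81.5 to 89.3 CPM in the control mice, 154 to 207 CPM in the LPS mice and 232 and 248 CPM with YW3-56, and its highest mean over the 8 mice was that of Mmp9, which neutrophils also make. Of 6 tested osteoclast genes, 4 were higher and 1 lower with LPS. Acp5 was higher with LPS by 1.15 and with YW3-56 against LPS by 1.45. Nfatc1 was lower with LPS by 0.39 and higher with YW3-56 against LPS by 0.37. Ocstamp, not called with LPS, was higher with YW3-56 against LPS by 4.44. That size rests on low counts of Ocstamp, 1, 2 and 1 in the LPS mice against 56 and 24 with YW3-56. The part of such cells in the Atp6v0d2 values was not tested.

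Plet1 encodes a glycolipid-anchored surface protein found on alveolar macrophages and on some epithelia. It was at 41.2, 45.1 and 46.4 CPM in the control mice, at 102, 81.0 and 88.8 CPM in the LPS mice, and at 36.3 and 36.4 CPM in the LPS + YW3-56 mice. The LPS mice were above all others and the mice given YW3-56 below all others. The log2 fold change was 1.03 ± 0.10 for LPS against control (edgeR adjusted p = 2.12e-05) and -1.32 ± 0.12 for LPS + YW3-56 against LPS (edgeR adjusted p = 2.45e-05). Leaving out LPS mice 6 and 7 gave 1.21 (edgeR adjusted p = 9.72e-05) and -1.50 (edgeR adjusted p = 0.000113). The difference from control with YW3-56, -0.28 ± 0.12, was not called (edgeR adjusted p = 0.133).

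Plet1 overlaps the antisense gene Plet1os, whose transcripts hold 17.1% of the 150-base stretches of the main Plet1 transcript. The strand setting of the counting is not stated, so reads of the pair cannot be told apart there. Of the listed other alveolar macrophage genes, some are also made by epithelium. The adhesion protein Cdh1 was at 296 to 301 CPM in the control mice, 722 to 954 CPM in the LPS mice and 203 and 222 CPM with YW3-56, and Perp was at 40.4 to 45.8, 85.6 to 162 and 33.5 to 33.9 CPM, while Krt19 was at 250 to 296, 79.4 to 101 and 244 to 335 CPM. Of 10 airway epithelium genes, 6 were higher and 4 lower with LPS, where 32.6% and 33.9% of all tested genes were called. The airway list summed to 31548 to 39928 CPM in the control mice and 58348 to 69310 CPM in the LPS mice. With YW3-56 it summed to 24699 and 27312 CPM, and most of the sum was Scgb1a1. Of 11 alveolar epithelium genes, 2 were higher and 6 lower with LPS, and their sum was highest in control mouse 4 (42013 CPM) and lowest in LPS mouse 7 (18711 CPM). The part of epithelium in the Plet1 values was not tested.

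Marco encodes a scavenger receptor that binds bacteria and particles. It was at 44.9, 18.1 and 27.8 CPM in the control mice, at 53.5, 62.0 and 31.4 CPM in the LPS mice, and at 158 and 125 CPM in the LPS + YW3-56 mice. The mice given YW3-56 were above all others, and the control and LPS ranges overlapped. The log2 fold change for LPS + YW3-56 was 2.23 ± 0.35 against control (edgeR adjusted p = 0.00321) and 1.53 ± 0.35 against LPS (edgeR adjusted p = 0.00434). Without LPS mice 6 and 7 it was 2.23 (edgeR adjusted p = 0.00424) and 1.40 (edgeR adjusted p = 0.0375). For LPS against control it was 0.70 ± 0.32 (edgeR adjusted p = 0.0835), and it was called without control mouse 1 (1.09, edgeR adjusted p = 0.0127) or without LPS mouse 7 (0.94, edgeR adjusted p = 0.0241).

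Other class A scavenger receptors differed among themselves. Msr1 was at 3.94 to 6.71 CPM in the control mice, 7.93 to 16.1 CPM in the LPS mice and 128 and 57.0 CPM with YW3-56, a log2 fold change of 4.06 against control (edgeR adjusted p = 0.000222). Colec12 was lower than control with LPS by 1.04 and with YW3-56 by 0.76. Scara3 was higher with LPS by 0.83, a call that was lost without LPS mice 6 and 7. It was at 8.96 CPM in LPS mouse 1, against 5.77, 7.32 and 5.89 CPM in the control mice. Scara5 was not called in any comparison.

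Mrc1, the mannose receptor, was at 60.5, 38.9 and 50.5 CPM in the control mice, at 62.7, 54.1 and 40.6 CPM in the LPS mice, and at 75.3 and 62.2 CPM in the LPS + YW3-56 mice. The LPS and control ranges overlapped, with a log2 fold change of 0.07 ± 0.19 (edgeR adjusted p = 0.757). With YW3-56 it was 0.46 ± 0.21 against control (edgeR adjusted p = 0.174) and 0.39 ± 0.21 against LPS (edgeR adjusted p = 0.138). Among its relatives, Mrc2 fell with LPS by 2.05 and Ly75 rose by 1.06, and Pla2r1, not called with LPS, was lower with YW3-56 than in control by 0.75.

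Chil3, a secreted chitinase-like protein that crystallizes in the lung, was at 594, 406 and 558 CPM in the control mice, at 654, 742 and 340 CPM in the LPS mice, and at 657 and 1244 CPM in the LPS + YW3-56 mice. The LPS mice overlapped both other groups, and the mice given YW3-56 were above all controls. LPS mouse 7 was the lowest of all 8 mice and mouse 5 with YW3-56 the highest. The log2 fold change was 0.16 ± 0.31 for LPS against control (edgeR adjusted p = 0.676) and 0.87 ± 0.34 for LPS + YW3-56 against control (edgeR adjusted p = 0.117). The latter was called without LPS mouse 7 (0.87, edgeR adjusted p = 0.0468). Against LPS it was 0.72 ± 0.34 (edgeR adjusted p = 0.0987), called where mouse 5 was the only one of its group (1.08, edgeR adjusted p = 0.0325).

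Chil3 is also made by neutrophils, monocytes and alternatively activated macrophages. Of all tested genes, 32.6% were called higher and 33.9% lower with LPS, and 9.13% and 7.02% with YW3-56 against control. Of 13 neutrophil genes, 13 were higher with LPS and 8 with YW3-56 than in control. Their sum was 199 to 350 CPM in the control mice, 2543 to 3704 CPM in the LPS mice and 2099 and 2597 CPM with YW3-56, with S100a9 the highest in the mean over the 8 mice. Of 11 monocyte genes, 9 were higher and 2 lower with LPS, and 9 were higher and 0 lower with YW3-56 than in control. Their sum was 1133 to 1390 CPM in the control mice, 926 to 1387 CPM in the LPS mice and 1564 and 1989 CPM with YW3-56. Ace, the most abundant of them over the 8 mice, is also made by endothelium and fell with LPS at a log2 fold change of -3.74, and Ccr2 at -3.19. Of 11 genes of alternative activation, 8 were higher and 2 lower with LPS, and 3 were higher and 3 lower with YW3-56 than in control. Their sum was 554 to 606 CPM in the control mice, 2369 to 3379 CPM in the LPS mice and 793 and 726 CPM with YW3-56, with Tgm2 the most abundant, and Retnla reached 440 to 614 CPM against 40.7 to 58.1 CPM in control and 26.2 and 44.5 CPM with YW3-56. The part of these cells in the Chil3 values was not tested. The relative Chi3l1 was at 689 to 980 CPM in control, 3072 to 3741 CPM with LPS and 1369 and 1194 CPM with YW3-56, and of 8 tested chitinase-like genes 4 were higher and 3 lower with LPS.

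**Figure D2:**
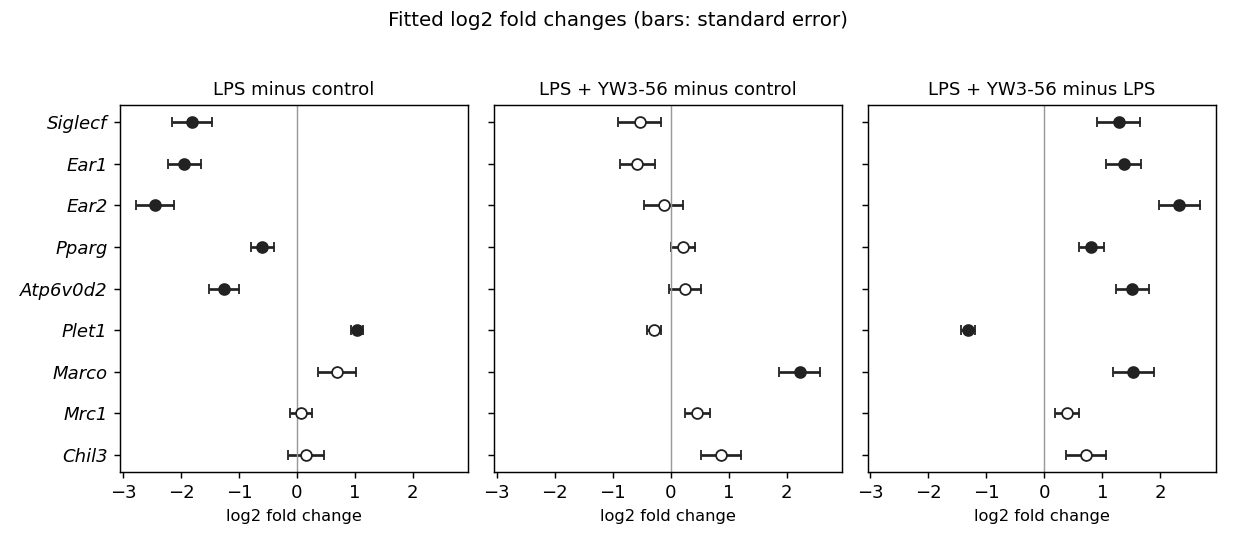
Fitted log2 fold changes of the 9 genes in the 3 comparisons, with bars of 1 standard error; filled points have an adjusted p under 0.05. Ear2 had the lowest value with LPS (-2.45), and of the 9 genes only Marco (2.23) was called with YW3-56 against control.

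Compared per kb of exon, Chil3 was the most abundant member in every group, at 297 ± 57.1 CPM per kb in control (SD, n = 3), and every mouse was above the next gene. In control Ear2 followed at 64.4 ± 12.5 CPM per kb, then Ear1 at 25.9 ± 6.21 and Marco at 15.7 ± 7.06. Ear1, Marco, Atp6v0d2 (9.55 ± 2.18), Plet1 (8.09 ± 0.49) and Mrc1 (6.38 ± 1.38) formed a run in which each gene overlapped its neighbours in the run. Siglecf (3.76 ± 0.872) and Pparg (1.34 ± 0.208) were the lowest, each with every mouse below the gene above. With LPS the order changed to Chil3 (331 ± 121), Marco (25.4 ± 8.19), Plet1 (16.6 ± 1.95) and Ear2 (11.8 ± 4.42), of which Plet1 overlapped both Marco and Ear2. With YW3-56 Marco (73.7 ± 12.2, n = 2) and Ear2 (59.4 ± 28.5) came after Chil3 (543 ± 237) and overlapped. Per kb of the longest transcript, Mrc1 came above Plet1 in control, above Ear1 with LPS and above Atp6v0d2 with YW3-56, and Siglecf came below Pparg with LPS. By that length the Pparg level in control was 2.21 ± 0.344 CPM per kb.

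The genes varied among themselves in the 8 libraries. In log2 CPM, Siglecf and Ear1 had a Pearson r of 0.975, Ear1 and Ear2 0.976 and Atp6v0d2 and Ear2 0.931, while Plet1 had -0.89 with Ear2. Marco had 0.867 with Mrc1, 0.755 with Chil3 and -0.0269 with Ear1. These values describe 8 libraries in 3 groups, and genes that differ between groups share that difference.

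The genes most like each member were searched among 12163 genes with a mean of at least 5 CPM. For Siglecf they were Rprm (r = 0.994), Pink1 (0.991) and Zfp827 (0.985), and for Ear1 they were Pink1 (0.989), Zbtb8a and Sptssa (both 0.986). Ear2 was nearest to Upk1b (0.994), Tmco1 and Atxn10 (both 0.993), and Atp6v0d2 to G2e3 (0.991), Mrps21 (0.986) and Nutf2 (0.984). Pparg was nearest to Smarcad1 (0.973), Gpat4 (0.969) and Slc27a1 (0.95). None of these is among the listed macrophage genes. Plet1 was nearest to Tmem87a (0.997), Gm17334 (0.997) and Crtc3 (0.996). Marco was nearest to Rrm1, Aprt and Bid (each 0.972), Mrc1 to Krtcap2 (0.95), Dtd2 (0.921) and Rabepk (0.918), and Chil3 to S100a13 (0.965), Dcaf7 (0.952) and Ccdc124 (0.947).

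Of 25 other alveolar macrophage genes tested, 9 were higher and 5 lower with LPS, where 32.6% and 33.9% of all tested genes were called, and their median log2 fold change was 0.06, against -0.01 over all tested genes. Ccl6 rose by 1.07, and the dipeptidase Dpep2 was at 0.0578 to 0.391 CPM in the LPS mice, against 0.610 to 0.920 CPM in control and 2.59 and 2.68 CPM with YW3-56. With YW3-56, 8 were higher and 5 lower than with LPS alone, and 4 were higher and 1 lower than in control. These counts did not hold without LPS mice 6 and 7: of 26 gene identifiers then tested, 2 of them of Dpep2, 5 were higher and 7 lower than with LPS alone, and 7 were higher and 2 lower than in control.

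Of 23 genes of GM-CSF and TGF-beta signalling and of transcription factors, 13 were higher and 4 lower with LPS, with a median of 0.94. The shares of all tested genes were 32.6% and 33.9%. PU.1, encoded by Spi1 and also present in neutrophils and monocytes, rose by 2.42, and Bhlhe40 by 2.72, while Stat5b fell by 1.29 and Maf by 1.19. Of the GM-CSF receptor subunits, Csf2rb rose by 1.12 with LPS and by 1.71 with YW3-56 against control. Csf2ra was not called with LPS and was higher with YW3-56 than in control by 1.27. The related receptor gene Csf2rb2 rose by 1.61 with LPS and by 1.82 with YW3-56 against control.

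Of 14 tested genes of macrophages at large, some of which neutrophils and monocytes also make, 8 were higher and 2 lower with LPS, where 32.6% and 33.9% of all tested genes were called, and the median was 0.92. Their sum was 7230 to 9249 CPM in the control mice, 5826 to 9665 CPM in the LPS mice and 8656 and 10749 CPM with YW3-56, with Lyz2 the most abundant in each mouse. In this list 9 were higher and 1 lower with YW3-56 than in control, where 9.13% and 7.02% of all tested genes were called. The median was 1.22, against 0.004 over all tested genes. Adgre1, which encodes F4/80, was at 12.1 to 16.9 CPM in the control mice, 7.98 to 16.1 CPM in the LPS mice and 42.2 and 70.7 CPM with YW3-56. Mertk went the other way, lower than control by 0.46 with YW3-56 and by 1.72 with LPS. Csf1r was lower than control by 1.01 with LPS and higher by 1.02 with YW3-56. Of 15 interstitial macrophage genes, 6 were higher and 1 lower with YW3-56 than in control, and 4 higher and 8 lower with LPS. Cd163 was higher with YW3-56 than in control by 1.98 and C1qb by 2.40, while Mgl2 was lower by 3.33. Lyve1, the most abundant gene of that list, Stab1 and Apoe were not called in that comparison. Among Siglecf's relatives, Siglec1 was at 46.5 and 51.9 CPM with YW3-56 and at most 12.9 CPM elsewhere, and Siglece at 38.4 and 39.2 CPM and at most 17.8 CPM. Of 7 tested relatives, 3 were higher and 1 lower with YW3-56 than in control, and 2 higher and 1 lower with LPS. The part of other macrophages in the Marco values was not tested.

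Several list counts with LPS moved by over 1.5 times without LPS mice 6 and 7. Airway epithelium had 4 higher and 1 lower, chitinase-like genes 2 higher and 0 lower, PPARG-linked lipid genes 2 higher and 6 lower, interstitial macrophage genes 4 higher and 5 lower, alveolar epithelium 2 higher and 3 lower, and endothelium 1 higher and 5 lower. Alternative activation had 7 higher and 1 lower, osteoclast genes 3 higher and 0 lower, Siglecf's relatives 2 higher and 0 lower, and the ribonuclease relatives 0 higher and 3 lower. Of the PPAR and RXR genes, 1 was then higher with YW3-56 than with LPS alone.

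Of the remaining lists, 6 of 10 dendritic cell genes were lower and 4 higher with LPS. Of 10 endothelial genes, 3 were lower and 1 higher, where 33.9% and 32.6% of all tested genes were called. Blood genes, most of all Hbb-bs, summed to 434 and 404 CPM with YW3-56, against 1760 to 3934 CPM in control and 1512 to 3372 CPM with LPS. The part of blood in the values of the 9 genes was not tested.

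**Figure D3:**
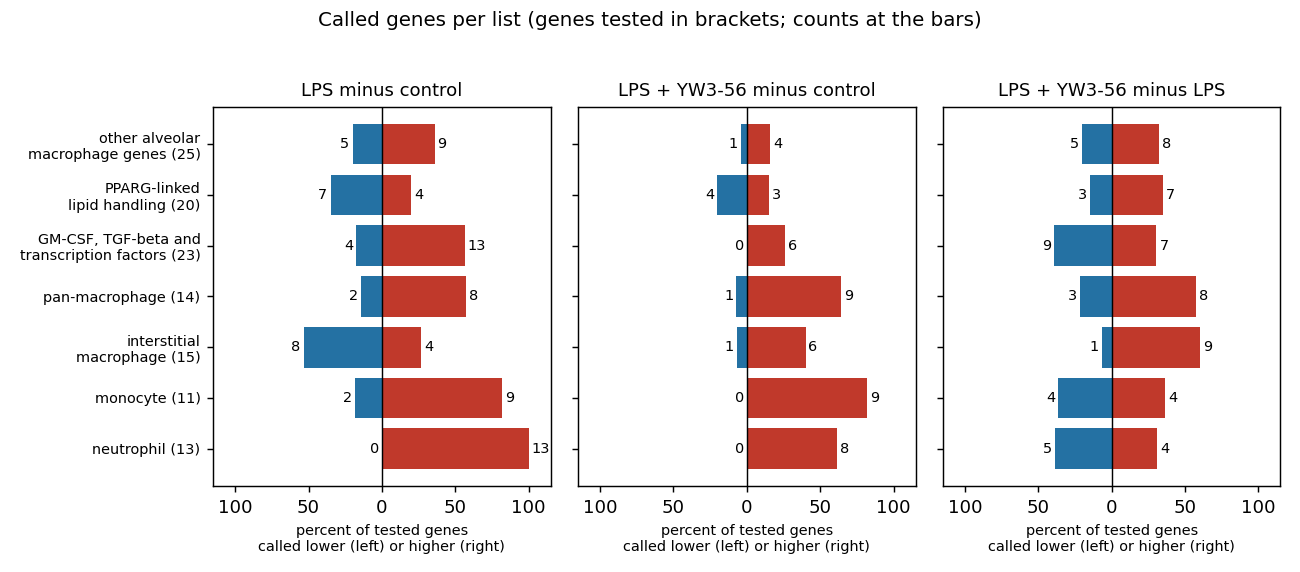
Share of the tested genes of 7 lists called higher (right, red) or lower (left, blue) in the 3 comparisons, with counts at the bars and genes tested in brackets; the 9 genes themselves are left out. All 13 neutrophil genes were called higher with LPS, and of 14 pan-macrophage genes 8 were called higher with LPS and 9 with YW3-56 than in control.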

How the data were processed

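RNA-seq of lung tissue from 8 mice in 3 groups was used. Per the submitters' notes and the methods, the authors trimmed reads with Trim Galore after FastQC 0.11.9, aligned them to GRCm39 with HISAT2 2.2.1 and counted them with featureCounts 2.0.1, and they deposited raw counts per gene. Annotation release, strand setting and handling of multiply mapped reads are not given in the sources used here.

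Testing was done with edgeR 4.0.16 under R 4.3.3. After filterByExpr and TMM scaling, a single quasi-likelihood model of the 8 libraries had the 3 groups as its only term, with 5 residual degrees of freedom. Log2 CPM used a prior count of 2. DESeq2 1.42.0, library-size and RLE scaling, looser and stricter filters, a fold test, fits of the compared pair of groups, omission of each mouse in turn, and omission of LPS mice 6 and 7 were alternatives. The test was checked on simulated data. Symbols, coordinates and exon lengths came from GENCODE M39, which named 54749 of the 55416 gene identifiers. The 667 others held 0.0533% of counts. Promoters came from RefSeq (GRCm38.p6), which listed 8 of the 9 members.

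The 9 members and 25 gene lists were chosen with earlier results of these data known. Named list genes, of which some that met the rule are left out, are all tested genes of lists with at most 6, and otherwise the 3 most abundant and, per comparison, the called genes with the 2 highest and 2 lowest log2 fold changes at a mean of at least 1 CPM. For each member the 3 genes of highest Pearson r are named. Epx, Prg3 and Ccr3, which were too low to be tested, Ear10, Krt19, Csf2ra and Csf2rb are named outside this rule. Log2 fold changes of list genes are given where called. For every list, the shares of all tested genes called are those given with the 9 genes. In the lists, 1 symbol, Lor, was not matched.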

Additional observations from a re-analysis of the deposited data

How the results depend on the processing

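Of the 9 members, 5 were called lower and 1 higher with LPS, and DESeq2 gave the same counts. Scaling by library size alone shifted the median log2 fold change of all genes by -0.29 for LPS against control and by 0.33 for LPS + YW3-56 against LPS, and the share of higher among all called genes from 49.0% to 35.6% and from 53.6% to 71.0%. Genes called lower in the latter comparison then numbered 3225. It also turned Mrc1 (-0.23) and Chil3 (-0.14) with LPS, neither called, and called both higher with YW3-56 than with LPS alone (0.73 and 1.05).

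Leaving out each mouse gave 1 to 2 members higher and 4 to 5 lower with LPS, 1 to 2 higher and 0 to 1 lower with YW3-56 against control, and 5 to 6 higher and 1 lower against LPS. All genes called with YW3-56 against control ranged from 790 to 1946 higher and from 430 to 1655 lower. Uncalled values changed sign in some of these fits: Mrc1 with LPS ranged from -0.084 to 0.24 (below 0 without control mouse 2 or LPS mouse 1), Chil3 with LPS from -0.056 to 0.44 (below 0 without LPS mouse 6), Ear2 with YW3-56 against control from -0.75 to 0.27 (above 0 without control mouse 1 or LPS + YW3-56 mouse 2), and Pparg in that comparison from -0.08 to 0.41 (below 0 without LPS + YW3-56 mouse 2). Il5ra with YW3-56 against LPS, called in the fit of all 8 mice, ranged from -0.75 to 6.13 and was below 0 without LPS + YW3-56 mouse 2, the mouse in which it was high. Without LPS mice 6 and 7, Krt5 with LPS was at -3.65 and Krt13 with YW3-56 against LPS at 1.24, where the LPS group had lost the libraries high in squamous genes.

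With no filter on low counts, 2 members were higher with LPS (Marco added) and 2 with YW3-56 against control (Chil3 added), and Mrc1 and Chil3 were called against LPS. A test against a fold of 1.5 called 3628 genes higher and 4145 lower with LPS, 622 and 158 with YW3-56 against control, and 3640 and 2672 against LPS; Pparg then lost both its calls and Siglecf that against LPS. A fold over 2 with unadjusted p under 0.05 called 3401 and 4049 with LPS, 1307 and 637 with YW3-56 against control, and 3826 and 2728 against LPS, and Pparg lost both its calls. Where not shown by the alternative itself, the cause was not tested. No paired analysis was possible because the groups share fewer than 2 mouse numbers. Groups of 3 and 2 mice limit every call, and the counts of genes in lists moved by over 1.5 times for 18 to 26 of 150 list counts on omission of 1 mouse, for 43 without LPS mice 6 and 7 and for 45 in the test against a fold of 1.5.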
